A study of Mus musculus with 12 samples.

Results

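Genes of ubiquitin conjugation and removal were examined for m1A (adenosine methylated at its first nitrogen) in RNA of the caudate putamen (CPu) of adult male mice. The members were chosen by symbol, as RefSeq protein-coding genes of chromosomes 1 to 19 whose name starts with Usp and a digit, Ube1 to Ube4, Ubr and a digit, Otud, or Fbxo and a digit. They numbered 137 of 20661 protein-coding genes on these chromosomes. Of the 137, 39 were Ube genes, 6 Ubr genes, 36 Fbxo genes, 50 Usp genes and 6 Otud genes. The rule reads names only, so it also takes Ube2m and Ube2f, which conjugate NEDD8, Ube2v1 and Ube2v2, which lack a catalytic site, and Usp6nl, a GTPase-activating protein.

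Ubiquitin is a small protein that is attached to other proteins through a relay. An E1 enzyme activates it, an E2 enzyme (most Ube2 genes) carries it, and an E3 ligase chooses the substrate. Ube3, Ube4 and Ubr genes encode ligases or chain-extending factors, and Fbxo genes encode F-box proteins, the substrate receptors of the SCF ligases. Usp and Otud genes encode proteases that take ubiquitin off again. Chains of ubiquitin mark proteins for the proteasome or change their place and partners, and in neurons this machinery takes part in the turnover of synaptic proteins.

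All mice carried loxP-flanked Tet1 alleles (Tet1 fl/fl). The control group received AAV-EGFP in the CPu, and the knockout (KO) group, labelled Tet1 delta/delta, received AAV-Cre-EGFP. Tissue was taken 2 weeks later. The promoter driving Cre is not given in the sources used here, and the tissue was bulk CPu, so that cells the virus did not reach are part of every KO sample. TET1 is a dioxygenase known for oxidising methylated cytosine in DNA, and the study asked where in the transcriptome its loss goes with a change in m1A. RNA was fragmented and enriched with an m1A antibody, and peaks were called for each of 3 control and 3 KO pull-downs against its own input. A peak is a stretch where pull-down coverage exceeded the input-based background at a q-value limit of 0.01, and its fold enrichment, the authors' own value, is the coverage at the summit over that background. A gene or region is said to be called in a library whose list holds such a peak. Whether libraries with different numbers come from different animals is not given in the labels, so spreads between libraries may be technical. In bulk tissue, fewer cells of a type and less RNA per cell cannot be told apart, and a gene without a peak may be too weakly expressed for one to be called.

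The lists held 3004 to 6947 peaks from 459332 to 2508102 pull-down tags, and every KO pull-down had more tags than every control pull-down. Control 1 was the shallowest library and was called with all duplicate tags kept. Its peaks stood apart: 72.4% of them had the modelled fragment length to the base, where the other libraries had 11.8% to 16% of such peaks. KO 2 had the most tags and peaks. Tet1 had no peak in any library, which checks nothing about the deletion. Of 10 markers of striatal projection neurons, 8 had a peak, and per library 4 to 7 were called. Markers of other cells were also called, oligodendrocyte genes in 1 to 3 of 4 and cortical excitatory neuron genes in 1 or 2 of 3 per library. Astrocyte genes were called in 0 to 2 of 4. Endothelial, choroid plexus and microglial genes were each called in 0 or 1 of 3.

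Many of the members' peaks lay just inside the transcript, downstream of an annotated start. The 9 start sites below are shown because each had a peak, with its summit 0 to 500 bases downstream of the start, in at least 4 of the 6 libraries. This display rule was chosen after the values were seen. Each sequence is 130 bases of RefSeq GRCm38.p6, read 5′ to 3′ on the strand of the gene, with 100 bases before the annotated start in lower case and the first 30 bases of the transcript in capitals.
Ube2k: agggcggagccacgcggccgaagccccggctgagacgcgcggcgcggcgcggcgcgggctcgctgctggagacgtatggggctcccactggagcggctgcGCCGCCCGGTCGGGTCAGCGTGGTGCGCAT
Ube2r2: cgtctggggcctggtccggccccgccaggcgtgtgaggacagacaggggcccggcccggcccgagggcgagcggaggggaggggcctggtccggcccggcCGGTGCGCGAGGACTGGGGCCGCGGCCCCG
Ube4b: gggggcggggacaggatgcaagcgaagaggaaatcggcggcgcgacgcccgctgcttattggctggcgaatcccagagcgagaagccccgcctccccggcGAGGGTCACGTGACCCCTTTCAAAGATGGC
Ube2b: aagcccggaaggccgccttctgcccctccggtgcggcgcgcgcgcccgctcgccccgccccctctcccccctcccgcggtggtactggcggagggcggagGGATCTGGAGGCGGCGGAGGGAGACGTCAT
Ube2q1: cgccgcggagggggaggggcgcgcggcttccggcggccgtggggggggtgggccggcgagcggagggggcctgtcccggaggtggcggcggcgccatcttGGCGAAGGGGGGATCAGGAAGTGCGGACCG
Ubr3: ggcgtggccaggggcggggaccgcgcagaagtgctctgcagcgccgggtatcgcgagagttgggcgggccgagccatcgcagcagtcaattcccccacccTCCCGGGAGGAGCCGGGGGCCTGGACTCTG
Ube2h: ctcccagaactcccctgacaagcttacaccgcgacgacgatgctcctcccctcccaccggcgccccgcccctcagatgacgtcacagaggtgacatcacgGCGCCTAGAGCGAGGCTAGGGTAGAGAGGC
Usp19: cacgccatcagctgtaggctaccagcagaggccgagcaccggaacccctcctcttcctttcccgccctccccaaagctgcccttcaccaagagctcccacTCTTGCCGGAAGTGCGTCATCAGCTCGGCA
Usp48: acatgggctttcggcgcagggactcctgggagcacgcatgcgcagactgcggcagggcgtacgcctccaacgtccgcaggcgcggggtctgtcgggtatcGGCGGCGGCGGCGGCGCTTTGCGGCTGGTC
These windows lie at chr5:65537145-65537274 (+ strand) for Ube2k, chr4:41135921-41136050 (+ strand) for Ube2r2, chr4:149426602-149426731 (- strand) for Ube4b, chr11:52000462-52000591 (- strand) for Ube2b, chr3:89773509-89773638 (+ strand) for Ube2q1, chr2:69897146-69897275 (+ strand) for Ubr3, chr6:30304510-30304639 (- strand) for Ube2h, chr9:108490576-108490705 (+ strand) for Usp19 and chr4:137594072-137594201 (+ strand) for Usp48.

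The peaks began after the shown bases in 8 of the 9 genes. In Ube2k, the first base of the peak lay 65 to 92 bases downstream of the start over the 6 libraries, and in Ube4b 88 to 152 bases. Ube2r2 differed, since its peak began at the start itself in KO 1 and upstream of it in the other libraries, at position −435 relative to the start in control 3. The start sites were rich in G and C. Over the 300-base window around the start (250 bases before it and 50 from it on), the share of G and C ran from 56.0% in Ube2h to 81.7% in Ube2r2 among these 9. Across the 25 members with a summit near the start it had a median of 67.8%, against 64.3% for the 80 members with a start site in the table and no such summit. Other protein-coding genes had medians of 63.3% with such a summit and 55.7% without. The median number of CpG pairs per window was 29.0 and 25 in the members, and 23.5 and 12.0 in the other genes, in the same order. The members' start sites were thus GC-rich with or without a summit near the start.

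The letters GTTCNANNC, which resemble the tRNA sequence around which the tRNA m1A methyltransferase acts, were searched on both strands of the same windows. They were present in 7.14% of windows of members with a summit near the start, those of Ube2s and Ubr2, and in 8.44% of windows of other protein-coding genes. The windows reach only 50 bases into the transcript, before most of the peaks, so the sequence under the peaks was not analysed here.

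Of 172 summits in members whose start sites were known, 74 (43.0%) lay 0 to 500 bases downstream of the nearest annotated start. A place called in several libraries counts once for each. With overlapping peaks joined, the 74 summits came from 26 places in 25 members, beside 57 places elsewhere. Places near a start were called in more libraries (mean 2.85 against 1.72), which raises the pooled share. Their median distance was 217 bases and their range 74 to 498 bases. Only 2 summits lay upstream of the nearest start, both in Ube2m, at −125 and −113 bases. Ube2m has 3 annotated starts, and both summits lay inside its span, near its 5′ end. A summit was counted only inside the span of a gene. Places upstream of the whole gene could thus not be counted, and the low number upstream says nothing about them. None lay more than 500 and up to 1000 bases downstream, the farthest inside the window being at 498 bases in Fbxo11 and the nearest outside it at 1081 bases in Ube2m. Within the gene spans, the downstream summits fell into a cluster behind the start and a spread of positions deep in the gene. The farthest lay 319463 bases from the start, in Ube2e2. Annotated starts were known for 105 of the 137 members and for 47 of the 63 with a peak, and the window of 500 bases was chosen after the positions were seen.

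**Figure D1:**
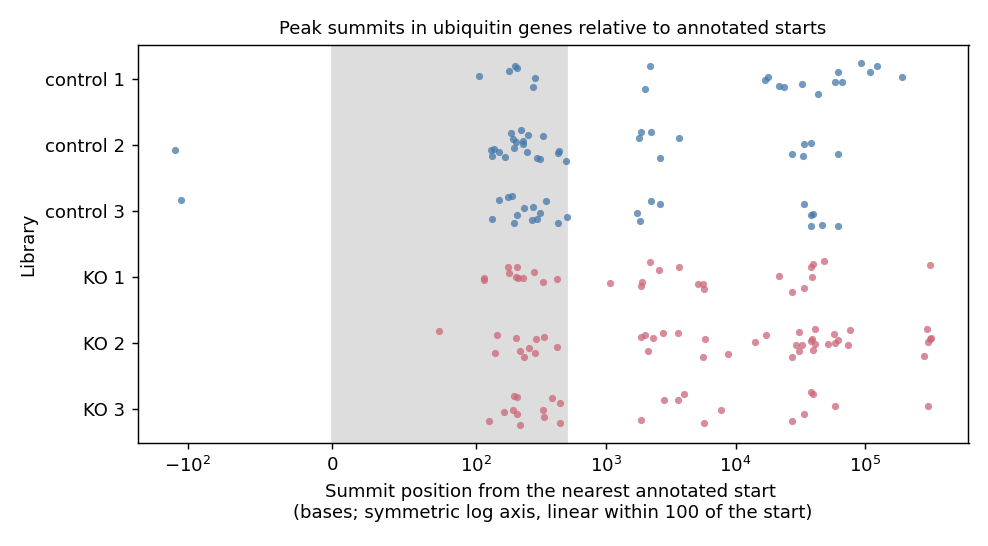
Position of each peak summit in the ubiquitin genes relative to the nearest annotated start, in bases on a symmetric log axis, with 1 row per library (blue control, red KO), 1 point per summit and random vertical scatter within a row. The grey band marks 0 to 500 bases downstream and holds 74 of the 172 summits, and most summits of control 1, KO 1 and KO 2 lie outside it.

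Other protein-coding genes had 26.2% of 15778 summits in the same window, with a median distance of 212 bases. The members' share was higher than that of the other genes in each of the 6 libraries. It was 28.6% against 16.5% in control 1, 64.5% against 38.2% in control 2 and 56.0% against 40.1% in control 3. In KO 1 it was 39.3% against 30.1%, in KO 2 25.6% against 11% and in KO 3 50% against 36.6%. The libraries share the same genes and are not independent draws of genes, and this difference was not tested.

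Control 2 and control 3 had the highest shares and KO 2 the lowest, with control 1 next to it. The genotypes overlapped through control 1, with 38.3% in KO and 49.7% in control on average. Among peaks with a −log10 q of at least 5, control 1 kept 5 summits, all 5 near the start, and the genotypes no longer overlapped, with 66.7% and 54.2% in controls 2 and 3 and 40.7%, 24.4% and 45.5% in KO 1, 2 and 3. The other protein-coding genes had 35.1%, 39.1% and 41.3% in controls 1, 2 and 3 at that limit, and 30.9%, 10.7% and 37.3% in KO 1, 2 and 3. Depth moved with the genotype here, and its part in the difference was not tested.

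**Figure D2:**
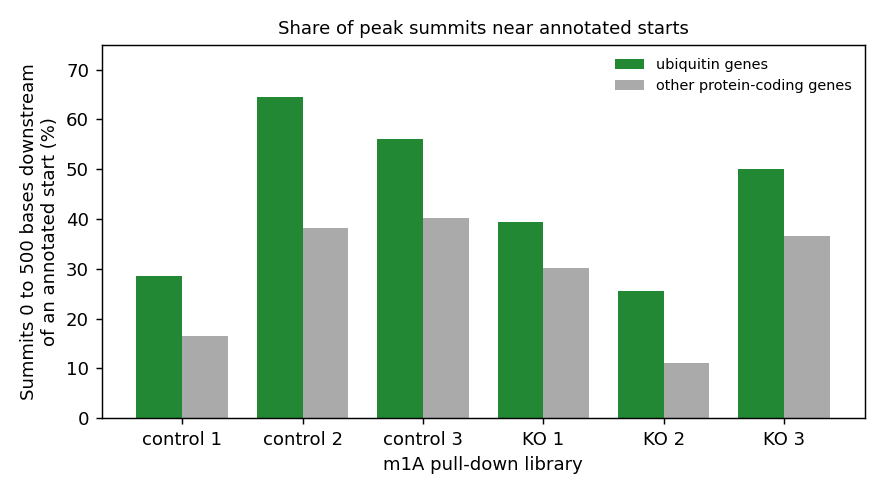
Percent of peak summits lying 0 to 500 bases downstream of the nearest annotated start, by library, in the ubiquitin genes (green) and in other protein-coding genes (grey). The green bar is higher in each library, from 25.6% in KO 2 to 64.5% in control 2.

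Peaks near a start recurred across libraries more often than peaks elsewhere. Peaks that shared at least 1 bp were merged into regions over the 6 lists. Of the members' 26 regions near a start, 18 (69.2%) were called in at least 2 libraries and 9 (34.6%) in at least 4. Of their 57 regions elsewhere, 19 (33.3%) were called in at least 2 libraries and 7 (12.3%) in at least 4. Most of the 38 regions elsewhere called in 1 library came from control 1 or KO 2. Few of the 8 such regions near a start did. These libraries were not left out for this comparison, so their part in it was not tested. Other protein-coding genes showed the same order, with 54.0% and 25.6% in at least 2 libraries, and the difference was not tested. Fold enrichment differed little with position, with a median of 7.57 near the start and 6.60 elsewhere in the members, or 7.53 and 7.46 without control 1. In control 1 alone the medians were 8.69 and 3.84.

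Of the 137 members, 63 (46.0%) had a peak in at least 1 library, against 27.0% of all protein-coding genes on these chromosomes. The members were longer genes, with a median span of 36.8 kb against 17.4 kb for other protein-coding genes. Among genes of 20 to 50 kb the shares were 33.3% for members and 28.2% for others, and among genes of at least 100 kb 68.8% and 63.8%. Below 20 kb they were 36.1% and 15.1%, and between 50 and 100 kb 64.7% and 42.8%. These 63 members held 207 peaks in 106 regions. They overlapped little with other genes, since 8 summits in 6 members also lay in the span of another gene.

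By family, Ubr ligases had a peak most often, in 5 of 6 members, followed by Otud proteases in 4 of 6. Ube genes had one in 22 of 39, Usp proteases in 20 of 50 and F-box genes in 12 of 36. Gene length was not taken into account in this order. The 5 Ubr genes with a peak spanned 82.6 to 127 kb, and Ubr7, without one, 19.7 kb. In each library 19 to 33 members were called, which was 0.828% to 1.08% of all genes with a peak there. Controls 1, 2 and 3 had 22, 28 and 19 members, and KO 1, 2 and 3 had 27, 33 and 24. The groups overlapped, with 28.0 ± 4.58 members (SD, n = 3) in KO and 23.0 ± 4.58 in control. Members made up 0.973 ± 0.0798% and 0.936 ± 0.131% (SD, n = 3) of the genes with a peak in KO and control, a difference smaller than the spread between libraries.

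**Figure D3:**
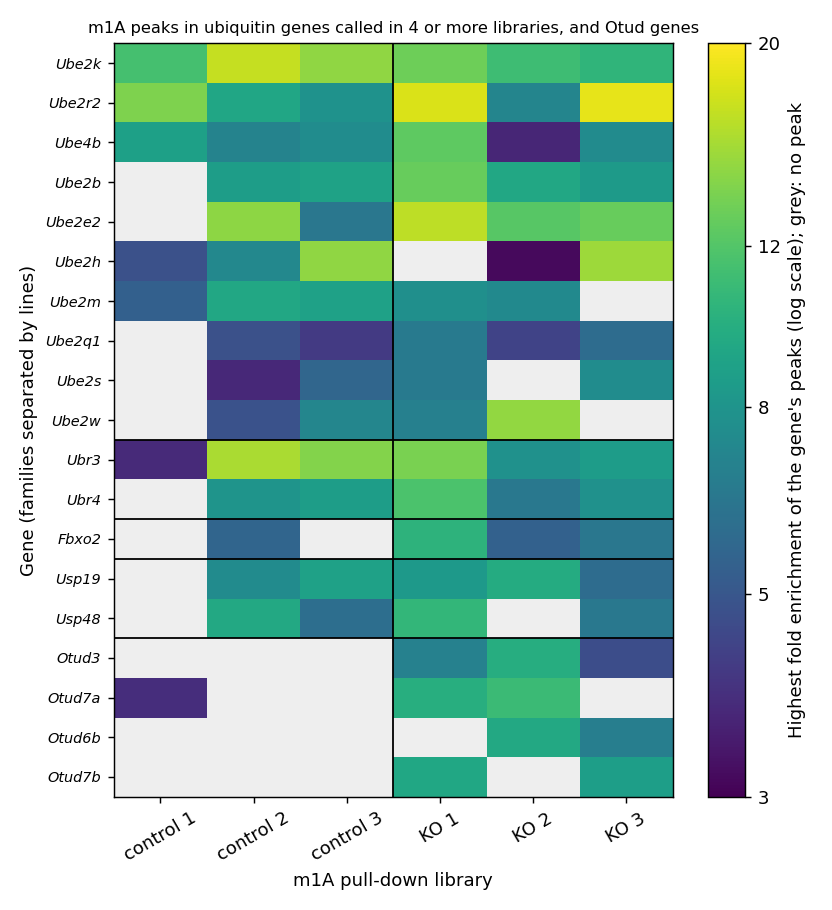
Highest fold enrichment of each gene's peaks (colour, log scale, authors' values) in the 6 libraries (columns) for the 15 ubiquitin genes called in 4 or more libraries and the 4 Otud genes with a peak (rows), grouped by family, with grey where the library had no peak. Ube2k, Ube2r2, Ube4b and Ubr3 are filled in every column, and the Otud rows at the bottom are grey in controls 2 and 3.

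Peaks in all 6 libraries were found in 4 members, 6.35% of the 63, against 8.81% of protein-coding genes with a peak. Of the members' 106 regions, 3 (2.83%) were called in all 6 libraries, against 2.96% of all 13572 regions. All 3 lay near a start and belonged to Ube2k, Ube2r2 and Ube4b. The members were thus called throughout at about the rate of other genes.

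Ube2k encodes an E2 that builds ubiquitin chains and binds huntingtin. At chromosome 5 from 65537310 to 65537780 its fold enrichments were 11.4, 16.9 and 14.6 in controls 1, 2 and 3 and 13.2, 11.1 and 10.4 in KO 1, 2 and 3. The summits lay 207 to 231 bases downstream of the start in all 6 libraries, and the values of the genotypes overlapped. KO 1 and KO 2 had a second region of Ube2k (6.02 to 8.58), and KO 2 a further region (5.79), both inside the span of the overlapping gene Gm40309.

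Ube2r2, a relative of the cell-cycle E2 Cdc34 that serves cullin ligases, had its only region on chromosome 4 from 41135586 to 41136222, with summits 105 to 141 bases downstream of the start. Fold enrichments were 13.9, 9.22 and 7.92 in controls 1, 2 and 3 and 18, 7.09 and 18.6 in KO 1, 2 and 3. KO 1 and KO 3 had the highest values and KO 2 the lowest, so the groups overlapped. The 18.6 of KO 3 was the highest of any member in any library.

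Ube4b, a ligase that extends ubiquitin chains, had its region on chromosome 4 from 149426009 to 149426543, at 273 to 347 bases from the start. Its values were 8.79, 7.01 and 7.53 in controls 1, 2 and 3 and 12.5, 3.68 and 7.48 in KO 1, 2 and 3. KO 1 was highest and KO 2 lowest, with the controls between them.

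Ubr3, a ligase with the UBR box that in its relatives reads protein amino ends, was called in all 6 libraries, but not at a single place. Near its start (chromosome 2 from 69897559 to 69897794) the fold enrichment was 15.7 and 14.1 in controls 2 and 3 and 13.7, 6.8 and 8.55 in KO 1, 2 and 3. Control 1 lacked this peak and had one 109161 bases from the start instead, at 3.76. At a fold enrichment of at least 4, only Ube2k and Ube2r2 of these 4 members kept a peak in all 6 libraries.

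Another 7 members were called in 5 libraries, 11.1% of those with a peak against 8.25% of protein-coding genes with a peak. These 7 were Ube2b, Ube2e2, Ube2h, Ube2m, Ube2q1, Ubr4 and Usp19. In 5 of them the missing library was control 1. Ube2h lacked a peak in KO 1 and Ube2m in KO 3. Without control 1, 9 members (17.0% of 53) were called in all 5 remaining libraries, against 15.3% of protein-coding genes.

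Ube2b, the counterpart of the yeast DNA-repair E2 Rad6, was called near its start at 7.01 and 8.92 in controls 2 and 3 and at 12.9, 9.35 and 8.44 in KO 1, 2 and 3 (chromosome 11 from 52000141 to 52000423). A further region of Ube2b was called in controls 2 and 3 and KO 1 (6.55 to 8.61). Ube2q1, an E2 of the Q class, had its peak 281 to 328 bases from the start, on chromosome 3 from 89773813 to 89774022. Its fold enrichments were low, at 4.80 and 4.15 in controls 2 and 3 and 6.52, 4.41 and 5.85 in KO 1, 2 and 3. In both genes the genotypes overlapped.

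Ube2h, an E2 that works with the CTLH ligase complex, was called near its start on chromosome 6 from 30304068 to 30304467. The calls were in the 3 controls at 4.80, 7.27 and 14.6 and in KO 3 at 15.1. KO 2 had its only peak of Ube2h far from that start, at 3.15. Ube2m, the NEDD8-conjugating E2 that activates cullin ligases, is a gene of 3.16 kb with 3 regions. The one towards the far end of the gene, on chromosome 7 from 13035284 to 13035744, was called at 5.38, 9.37 and 8.86 in controls 1, 2 and 3 and at 7.73 and 7.36 in KO 1 and 2. The one at the 5′ end of its span was called in controls 2 and 3 alone, at 8.51 and 5.32. Its summits are those that lay upstream of the nearest annotated start.

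Ube2e2, an E2 with an amino-terminal extension that works with RING ligases, spans 321 kb and had the most regions, 7, none of them near its start. The region on chromosome 14 from 18859554 to 18859787 was called at 12.7 and 6.38 in controls 2 and 3 and at 16.5 and 11.2 in KO 1 and 3. Its neighbour from 18866204 to 18866497 was called at 14.5 in control 2 and at 13.9, 7.46 and 12.9 in KO 1, 2 and 3. The other 5 regions of Ube2e2 were called in KO libraries alone, 4 of them in a single library. KO 2 held 5 of the 7 regions.

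Ubr4, a very large ligase with the UBR box that binds calmodulin, had 6 regions in 109 kb. The strongest in number of libraries lay on chromosome 4 from 139418415 to 139418700, 37892 to 37911 bases from the start. It had fold enrichments of 8.0 and 7.78 in controls 2 and 3 and 11.7, 6.30 and 7.85 in KO 1, 2 and 3. The next regions, from 139419016 to 139419381 and from 139420225 to 139420514, were called in 3 and 4 libraries. At the start of Ubr4 a peak was called in controls 2 and 3 alone, at 5.24 and 6.38.

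Among the Usp proteases, Usp19, which has a form anchored in the endoplasmic reticulum, was called most. At chromosome 9 from 108492392 to 108492720 its fold enrichments were 5.75 and 8.73 in controls 2 and 3 and 7.90, 9.61 and 5.86 in KO 1, 2 and 3. Its region at the start, from 108490813 to 108491060, was called at 7.49 and 8.91 in controls 2 and 3 and at 8.37 and 8.20 in KO 1 and 2. A further region was called in KO 2 and KO 3 at 5.24 and 4.60. Usp48, a nuclear protease, followed with 4 libraries, at 9.45 and 5.95 in controls 2 and 3 and 10.5 and 6.41 in KO 1 and 3, at 175 to 208 bases from the start.

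With Usp48, 4 members were called in 4 libraries, 6.35% of those with a peak against 9.47% of protein-coding genes with a peak. The other members in 4 libraries were Ube2s, Ube2w and Fbxo2. Ube2s, the chain-extending E2 of the anaphase-promoting complex, had values of 3.73 to 7.53 at 3 places. Ube2w, an E2 that puts ubiquitin on amino ends, had 1 region with values of 4.83 to 14.7, highest in KO 2. Fbxo2, a neuron-rich F-box protein that binds glycoproteins, was called in the 3 KO libraries at 10.2, 5.40 and 6.37 and in control 2 at 5.57, in a region 3619 to 3658 bases from its start. It was the F-box gene called in most libraries.

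Another 9 members were called in 3 libraries, 14.3% of those with a peak against 12.1% of protein-coding genes with a peak. Among these 9 were Otud3, Otud7a, Ube2z, Usp15, Fbxo11, Fbxo21 and Fbxo46. Usp15, a protease of growth-factor signalling, had its 1 region at 11.6 and 8.13 in controls 2 and 3 and at 15.6 in KO 2. Fbxo11, an F-box protein that targets the repressor BCL6, was called near its start at 7.01 and 11.3 in controls 2 and 3 and at 3.82 in KO 3.

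The 74 members without a peak included well-known enzymes. All 4 Ube2d genes (Ube2d1, Ube2d2a, Ube2d2b and Ube2d3), which encode E2s that work with many ligases, were among them, as was Ube2n, the E2 of chains that do not lead to the proteasome. The 5 Usp17l genes also had no peak. They are near-identical copies, and how the authors placed reads that fit several copies is not given in the sources used here. Among the ligases, Ube3b, Ube4a and Ubr7 had no peak, while Ube3c had peaks in control 1 alone.

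Ube3a, the ligase whose maternal loss causes Angelman syndrome, was called in KO 2 alone, at 5.72 near the start and at 17.1 at 32647 bases. That value was among the highest 5 of any member, with those of Ube2r2, Ube2k, Ube2e2 (16.5 in KO 1) and Ubr3.

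KO libraries alone called 18 members (28.6% of the 63, against 32.2% of protein-coding genes with a peak), and control libraries alone called 17 (27.0% against 21.6%). At least 2 KO and no control library called 7 members (11.1% of the 63, against 7.75% of protein-coding genes), and at least 2 control and no KO library called 1 (1.59% against 3.89%). All 3 KO and no control library called 1 member, 1.59% of the 63 against 1.78% of protein-coding genes. All 3 control and no KO library called 0 members, where 0.843% of protein-coding genes were so called. The 7 members called in KO were Otud3, Otud6b, Otud7b, Usp5, Usp10, Usp12 and Ube2o, and the 1 in control was Usp2. Without control 1 and KO 2, both remaining KO libraries and no remaining control called 5 members (11.9% of 42, against 6.71% of protein-coding genes), and the reverse held for 2 (4.76% against 6.89%).

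The Otud proteases belong to the ovarian tumour family of deubiquitinases. Each KO library called 3 of the 6 Otud genes, control 1 called 1 and controls 2 and 3 called 0. Of the 4 with a peak, 3 were called in KO alone, where 32.2% of protein-coding genes with a peak were. The family was singled out of 5 after its values were seen, and nothing was tested on its 4 genes. Otud3 was the member called in all 3 KO and no control library. Its region lay on chromosome 4 from 138908030 to 138908422, inside the gene and 5689 to 5773 bases from the start, with fold enrichments of 6.92, 9.75 and 4.68 in KO 1, 2 and 3. It was also the members' only region of that kind among 106 (0.943%), against 1.41% of all regions. No region of a member was called in all 3 controls and no KO library, against 0.796% of all regions.

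Otud7b, also known as Cezanne, was called in KO 1 and KO 3 at 9.30 and 8.67, on chromosome 3 from 96104582 to 96104785. Otud6b had 3 regions, of which that on chromosome 4 from 14825429 to 14825731 was called in KO 2 and KO 3 at 6.62 and 6.76. Otud7a, the close relative of Otud7b and a gene of 321 kb, was called in KO 1 and KO 2 at 9.85 and 10.9, on chromosome 7 from 63757513 to 63757897. Control 1 had 3 peaks of Otud7a at other places, at 3.70 to 3.84, each exactly 170 bp long, the fragment length modelled in that library. Otud1 and Otud4 had no peak. All KO pull-downs were deeper than all control pull-downs, and the part of depth in these calls was not tested.

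**Figure D4:**
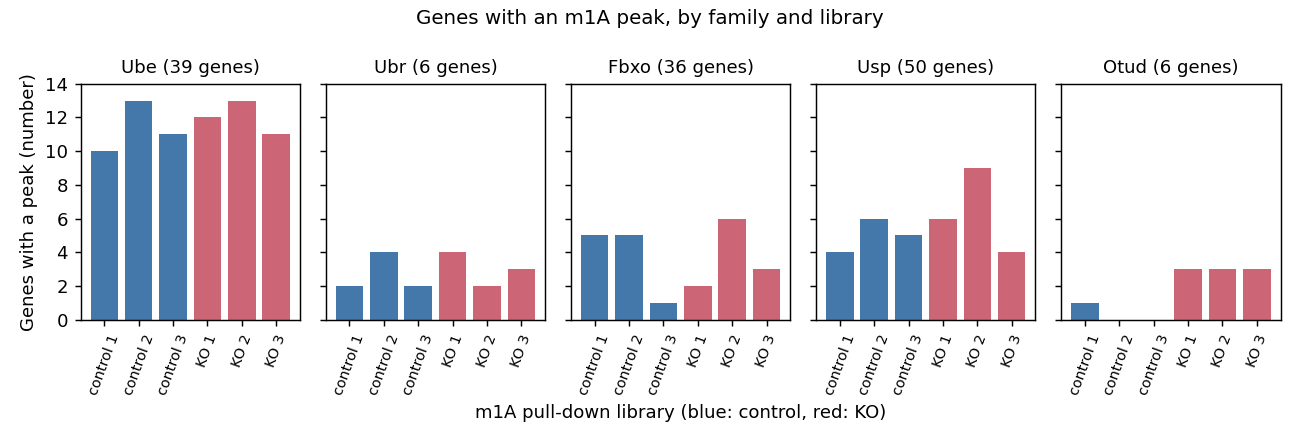
Number of genes with an m1A peak in each library (blue control, red KO) for the 5 families, each panel titled with its number of genes. The Otud panel shows 3 genes in each KO library against 1, 0 and 0 in the controls, while the bars of the genotypes overlap in the other 4 panels.

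Of the other members called in KO, Usp5, which takes apart free ubiquitin chains, had 3 regions, with 5.79 and 6.07 in KO 1 and KO 3 at the shared one, on chromosome 6 from 124824987 to 124825309. Ube2o, an E2 that also acts as a ligase, was called in KO 1 and KO 3 at 8.57 and 4.23, and Usp12, which works with the cofactor Uaf1, in KO 2 and KO 3 at 4.41 and 4.64. Usp10, which is found with the stress-granule protein G3bp1, was called in KO 1 and KO 2 at 7.22 and 7.90, but at different places. Usp2, a protease of the circadian clock, was called in controls 2 and 3 at 14.5 and 7.13, on chromosome 9 from 44084920 to 44085227 and 167 to 189 bases from an annotated start that lies inside the gene.

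A single library called 27 of the 63 members (42.9%, against 42.2% of protein-coding genes). Control 1 accounted for 10 of the 27 and KO 2 for 9, while over all protein-coding genes called in a single library they accounted for 27.2% and 37.0%. Controls 2 and 3 had 4 and 2, KO 1 had 2 and KO 3 had 0. The 10 of control 1 included Ubr1, a ligase of the N-degron pathway, and Fbxo7, an F-box gene of parkinsonism in humans, and 80.8% of its 26 peaks in members had exactly the fragment length. Its members' peaks were also thin, with a median pileup of 4.50 tags against 17.0 to 24.0 in the other libraries. The 9 of KO 2 included Ube3a, Ube2e3 (12.7) and Usp53 (11). Usp7 and Usp14 were called in KO 1 alone, at 4.74 and 5.02.

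Within the libraries, the members' peaks were of ordinary strength. Their median fold enrichment was 4.98 in control 1, where that of all peaks was 4.65, and 6.93 to 8.02 in the other libraries, where that of all peaks was 7.16 to 7.53. A total of 42 members had a single region and 21 had 2 or more, with Ube2e2 (7), Ubr4 (6), Otud7a (5) and Ubr3 (4) at the top.

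Other genes of the pathway were described from 5 lists. Of the HECT ligases, 14 of 22 had a peak, of the other deubiquitinases 12 of 23 and of the other F-box proteins 13 of 27. Of ubiquitin and the E1 enzymes 6 of 13 had one, and of the cullin ligase core 6 of 14. Over all protein-coding genes of chromosomes 1 to 19 the share was 27.0%, and gene length was not taken into account here. The lists were not limited to these chromosomes and hold X-linked genes such as Huwe1 and Uba1, so the gene sets compared here differ in this. In all 6 libraries, 5 of the 51 list genes with a peak were called (9.8%), close to the 8.81% of protein-coding genes. They were the HECT ligases Smurf1 (7.25 to 12.5) and Herc3 (5.79 to 8.73), the F-box genes Fbxl16 (4.91 to 11.7) and Fbxl17 (4.80 to 18.6), and the protease Vcpip1 (5.40 to 15), which acts with the segregase VCP. The giant ligase Herc1 was the gene of these 5 lists called in all 3 KO and no control library, at 12.0, 26.7 and 6.63 in KO 1, 2 and 3, and the reverse held for none of their genes. In at least 2 KO and no control library, 4 genes of these lists were called (Herc1, Hecw2, Uchl1 and Cul5), and 0 the other way. These 4 were 7.84% of the 51 list genes with a peak, close to the 7.75% of protein-coding genes, and the 1 in all 3 KO libraries was 1.96%, beside 1.78%.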

How the data were processed

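The 12 samples were 3 pull-downs and 3 inputs per genotype. The 6 deposited peak lists, 1 per pull-down, were analysed. Per the submitters' processing notes, cutadapt 2.8, HISAT2 2.1.0, MACS2 2.2.6 and GRCm38 were used. Per the file headers, each pull-down was called against its own input with an extension of 150 bp, and duplicates were all kept in control 1 and limited to 1 tag per position elsewhere. For each peak the authors deposited the pileup (a signal, tag coverage), the −log10 of the p-value and q-value, and the fold enrichment (a ratio). They order or limit the peaks of a list. Values of different lists are set side by side as a description and were not tested, since each list has its own depth and background.

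Summits were placed in gene spans of a RefSeq table of GRCm38.p6, and positions were taken from its start-site windows. The table holds no exons, and the strand of the reads is not given in the sources used here, so introns, exons and antisense genes were not told apart. Regions were peaks merged where they shared at least 1 bp. Lists hold no counts outside peaks, so no counting interval can be given. Assignment and merging were tested on simulated data. Python 3.11.15, pandas 2.3.3 and scipy 1.17.1 were used.

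Members and lists were chosen with earlier results of these data known. The planned exact two-sided permutation tests of KO against control over the 20 assignments of 6 libraries cannot go below 0.1 and are not given for the members, which are described by counts beside those of all genes. Named members were those called in 5 or 6 libraries or in all of 1 genotype alone, the best-called of each family, and the 5 with most regions or highest fold, with those in 4 libraries or in 2 of 1 genotype alone by name or range. Other members named, called in 1 to 3 libraries or in none, were chosen after their values were seen. Alternatives changed the peak limits, list length, gene placement, merging, depth scaling, libraries used and pairing. Values of some members are not reported here.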

Additional observations from a re-analysis of the deposited data

How the results depend on the processing

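The KO excess in the number of members called (5 per library) and in their peaks (11) kept its direction with each library left out. The ranges were 2.5 to 7.50 and 5.50 to 15. It also kept its direction under the other alternatives except per 1000000 tags used, where it reversed to −14.1 and −14.8. The excess shrank to 1.33 members and 5 peaks with lists of equal length, and to 2 and 4 without control 1 and KO 2. It grew to 9.33 and 16.3 with a −log10 q of at least 5, and to 6.33 and 13 with a fold limit of 4. The difference in share of genes (0.0365 percentage points) reversed to −0.000527 with the fold limit raised to 4 and ran from −0.0178, without control 3, to 0.109 with a library left out. That in share of peaks (0.0199) reversed to −0.0130 with that limit and ran from −0.0437 to 0.113, reversing without control 1, KO 1 or KO 3. The cause was not tested. With a replicate block the differences were again 5, 0.0365, 11 and 0.0199. Whether same-numbered libraries share more than a number is not given in the labels. Their deviations over genes correlated at −0.04, −0.04 and 0.04, which cannot show whether an animal or a batch was shared.

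Members called in all libraries (4) became 2 with the fold limit raised to 4, ran from 4 to 9 with a library left out, the 9 without control 1, and were 11 without control 1 and KO 2. Members called in every KO library alone (1) ran from 1 to 4 with a library left out, 4 without KO 2 and 3 without KO 1, and were 5 without control 1 and KO 2. Those in every control alone (0) ran from 0 to 1 and were 2. For regions the KO count (1) ran from 1 to 5, the 5 without KO 1, and was 5, and the control count (0) ran from 0 to 3, the 3 without control 1, and was 4. Fewer libraries make these rules easier to meet. A −log10 q of at least 5, lists of equal length, summits in 1 gene alone, any overlap of peak and gene (members) and merging at 50 bp (regions) kept these 5 counts within 1.5 times. The share of summits near a start, chosen after seeing the data, was lower in KO by 11.4 percentage points (−11.4). The difference was −5.76 within 250 bases, −11.4 within 1000, −22.0 without control 1 and −36.7 among peaks passing the −log10 q limit of 5. That last value averages in 100% for control 1, which rests on 5 summits. No other library was left out for this share. Its dependence on control 2 (64.5%, the highest) or KO 2 (25.6%, the lowest) was thus not tested. Depth limits all absences: a gene without a peak was not called at that depth.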
